A study of Mus musculus with 9 samples.

Results

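The genes described here are 33 genes of DNA replication and cell division, 13 that act around S phase and 20 that act in mitosis, chosen by name and not by their values. Of these, 32 had a probe set carrying only their own symbol, out of 19752 genes measured in this way, namely 13 of 13 S phase genes and 19 of 20 mitosis genes. Ccnb1 was not analysed here. For each gene the probe set with the highest mean over the arrays was used, and all levels are log2 of the deposited intensity.

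Peritoneal macrophages were taken from C57BL/6 males of 6 weeks, for which the labels name no altered gene. They were killed 2 h after a dose under the skin of recombinant interferon alpha (IFNa, 10000 U, n = 4 arrays) or recombinant interferon gamma (IFNg, 8000 U, n = 2 arrays), or had no treatment (n = 3 arrays). There was no group injected with vehicle, so interferon cannot be told apart from the injection. The cells were sorted in 2 rounds on a FACSAria, by F4/80 and ICAM2 per the labels of the treated samples and by F4/80 alone per those of the untreated samples. The labels do not say which arrays came from separate mice or pools, so the p-values measure the spread between these arrays, which may be technical.

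Resident macrophages of the peritoneal cavity are long-lived cells that can renew themselves by dividing in place, driven by the growth factor CSF1 and, in some settings, by interleukin 4. In a dividing cell the genes of S phase are switched on first, largely by E2F transcription factors, and supply the replicative helicase (Mcm genes), the sliding clamp (Pcna) and the enzymes that make deoxynucleotides (Rrm2, Tyms, Tk1). The mitosis genes follow under the DREAM and MuvB complexes with B-Myb and FoxM1, which act through the cell cycle homology region of their promoters. They encode the cyclins and kinase of mitotic entry (Ccna2, Ccnb2, Cdk1), the kinases and checkpoint proteins of the spindle (Aurka, Aurkb, Plk1, Bub1, Bub1b) and the motors and microtubule proteins that separate the chromosomes. In an extract of many cells, fewer dividing cells and less RNA of these genes per cell cannot be told apart, and division itself was not measured.

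The promoters of 2 genes of each phase are shown, those with the largest residual SD between arrays of 1 group that had an entry, since these genes moved together. Each sequence is the 250 bases before the start of the gene in RefSeq (mouse build GRCm38.p6), written 5′ to 3′ on the strand of the gene. Capitals mark 3 kinds of motif found on either strand: CCAAT boxes (CCAAT, read as ATTGG on the other strand), the cell cycle homology region (TTTGAA or TTTAAA, or TTCAAA where TTTGAA lies on the other strand) and E2F sites (TTTNNCGC, here found on the other strand). The windows lie at chr12:24708004-24708253 on the plus strand for Rrm2, chr5:138171884-138172133 on the minus strand for Mcm7, chr2:127831860-127832109 on the minus strand for Bub1 and chr11:99024190-99024439 on the minus strand for Top2a. For Mcm7 the first of 2 entries was used. No motifs overlapped in these 4 windows.
Rrm2: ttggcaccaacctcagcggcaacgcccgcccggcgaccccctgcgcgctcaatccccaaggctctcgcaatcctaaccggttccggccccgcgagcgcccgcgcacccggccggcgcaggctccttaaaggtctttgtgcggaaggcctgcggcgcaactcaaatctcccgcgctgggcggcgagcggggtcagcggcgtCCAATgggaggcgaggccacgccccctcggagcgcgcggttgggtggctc
Mcm7: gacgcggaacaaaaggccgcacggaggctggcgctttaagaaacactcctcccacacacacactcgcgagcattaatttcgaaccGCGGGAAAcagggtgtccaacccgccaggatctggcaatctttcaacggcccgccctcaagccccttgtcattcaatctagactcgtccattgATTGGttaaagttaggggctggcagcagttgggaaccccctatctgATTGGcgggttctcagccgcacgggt
Bub1: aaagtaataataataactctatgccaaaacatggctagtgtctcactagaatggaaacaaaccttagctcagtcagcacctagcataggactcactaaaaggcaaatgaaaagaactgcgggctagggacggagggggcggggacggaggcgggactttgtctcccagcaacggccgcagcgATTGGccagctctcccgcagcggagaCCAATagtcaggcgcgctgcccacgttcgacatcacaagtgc
Top2a: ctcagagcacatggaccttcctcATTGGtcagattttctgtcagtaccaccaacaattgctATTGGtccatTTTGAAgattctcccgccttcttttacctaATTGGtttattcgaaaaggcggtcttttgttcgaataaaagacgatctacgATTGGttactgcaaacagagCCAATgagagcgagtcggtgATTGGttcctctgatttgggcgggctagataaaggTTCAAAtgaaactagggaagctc

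Rrm2 held 1 CCAAT box, Mcm7 held 2 and 1 E2F site, Bub1 held 2, and Top2a held 6 with 2 cell cycle homology regions, the nearer of them 23 bases before the start. An entry was found for 26 of the 32 genes. A CCAAT box was present in 20 of these 26 (7 of 11 S phase and 13 of 15 mitosis genes), against 34.5% of the 27025 genes with an upstream window of this length. The letters of the cell cycle homology region were present in 13 of 26 (4 of 11 and 9 of 15), against 25.5% of all genes. E2F letters were present in 5 of 26 (4 of 11 and 1 of 15), against 4.39%. These matches describe letters in the windows and not bound sites.

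The sorted cells carried the markers of large peritoneal macrophages. Adgre1, which encodes F4/80, lay between 12.93 and 13.16 on the 9 arrays, and Icam2 between 11.28 and 11.92. The mean of 14 macrophage markers (of 15 listed) lay between 12.37 and 12.57 on every array. Of these markers Gata6 was called lower after either interferon, and Mertk, a receptor for the uptake of dead cells, was called higher after IFNa. Of 10 interferon response genes, 8 were called higher after IFNa and 7 after IFNg. The arrays differed in the width of their intensity distribution. The interquartile range of log2 intensity was 2.18 on untreated replicate 1 and 2.06 on IFNa replicate 4, against 2.60 to 2.96 on the other 7 arrays, and these 2 narrow arrays also had the lowest mean correlations with the rest (0.961 and 0.956, against 0.976 to 0.982). The spans and counts below that change most without these arrays are also given without them.

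Within every group the cell cycle genes were high together on some arrays and low together on others. All 32 were highest on replicate 3 among the 4 IFNa arrays, where 19.1% of all genes were highest, and 31 were lowest on replicate 4, where 35.2% of all genes were lowest. Among the untreated arrays 31 of 32 were highest on replicate 3, against 36% of all genes. In the top quartile of mean intensity these shares were 30.6%, 65.6% and 73.5%. On the IFNg pair 31 of 32 were higher on replicate 1, against 56.2% of all genes and 44% of the top quartile. The replicates of a group received the same treatment, so this spread lies between arrays that the design treats as alike. The range within the IFNa group exceeded the difference from untreated in all 32 genes, after IFNa and after IFNg alike. The share of all genes for which this holds was not counted. Without IFNa replicate 4, 1 of the 2 narrow arrays, the range of the other 3 IFNa arrays exceeded the IFNa difference in 23 genes and the IFNg difference in 25.

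The genes of S phase showed the pattern from origin licensing to nucleotide supply. Rrm2, the small subunit of ribonucleotide reductase, had levels of 7.40, 8.03 and 9.15 on untreated replicates 1 to 3, 8.59, 9.39, 10.02 and 7.49 on IFNa replicates 1 to 4, and 9.77 and 9.06 on IFNg replicates 1 and 2. Mcm7, a subunit of the replicative helicase, had levels of 8.26, 8.40 and 9.37 on untreated replicates 1 to 3, 8.74, 9.87, 10.30 and 8.18 on IFNa replicates 1 to 4, and 9.95 and 9.62 on IFNg replicates 1 and 2. Both genes were high on untreated replicate 3 and IFNa replicate 3 and low on untreated replicates 1 and 2 and IFNa replicate 4, and their IFNa and untreated arrays overlapped. Rrm2 spanned 5.79-fold among the IFNa arrays and 3.38-fold among the untreated arrays, and Mcm7 4.33-fold and 2.17-fold. Without IFNa replicate 4 the IFNa spans were 2.71-fold and 2.94-fold. Ccne2, a cyclin E that starts S phase with Cdk2, had levels of 6.21, 6.79 and 7.48 on untreated replicates 1 to 3, 7.29, 7.29, 7.97 and 6.02 on IFNa replicates 1 to 4, and 7.86 and 7.17 on IFNg replicates 1 and 2. Its highest and lowest arrays in the IFNa group were again replicates 3 and 4, a 3.87-fold span that was 1.60-fold without replicate 4.

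The 3 S phase genes with the highest untreated means behaved in the same way. Pcna, the clamp that holds DNA polymerase on its template, had levels of 10.88, 11.49 and 11.82 on untreated replicates 1 to 3, 11.51, 11.87, 12.21 and 10.95 on IFNa replicates 1 to 4, and 12.18 and 11.86 on IFNg replicates 1 and 2. Mcm5 had levels of 8.67, 9.03 and 9.65 on untreated replicates 1 to 3, 9.26, 9.87, 10.15 and 8.78 on IFNa replicates 1 to 4, and 10.00 and 9.98 on IFNg replicates 1 and 2. Mcm6 had levels of 8.59, 8.83 and 9.57 on untreated replicates 1 to 3, 9.35, 9.92, 10.38 and 8.77 on IFNa replicates 1 to 4, and 9.89 and 9.70 on IFNg replicates 1 and 2. Mcm5 and Mcm6 are helicase subunits like Mcm7, and for all 3 genes the top of the untreated range lay inside the range of the IFNa arrays. The second probe set of Pcna gave a range of 1.24 among the IFNa arrays, close to the 1.26 of the probe set used. Among all S phase genes the range within the IFNa group ran from 0.46 (Ccne1, the other cyclin E) to 2.53 (Rrm2), and within the untreated group from 0.20 to 1.76. The remaining genes of this phase, Cdc6, which loads the helicase, Mcm3, Tk1 and Ccne1, spanned 1.37-fold to 2.96-fold among the IFNa arrays, and 1.33-fold to 2.19-fold without replicate 4.

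The mitosis genes with the largest residual SD followed the same arrays. Bub1, a kinase of the spindle checkpoint, had levels of 6.87, 7.08 and 8.22 on untreated replicates 1 to 3, 8.04, 8.65, 9.69 and 6.87 on IFNa replicates 1 to 4, and 9.37 and 8.57 on IFNg replicates 1 and 2. Top2a, the topoisomerase that untangles replicated chromosomes, had levels of 7.93, 8.14 and 9.33 on untreated replicates 1 to 3, 9.34, 9.67, 10.41 and 7.72 on IFNa replicates 1 to 4, and 10.12 and 9.39 on IFNg replicates 1 and 2. Kif11, the motor that pushes the spindle poles apart, had levels of 7.64, 8.08 and 9.10 on untreated replicates 1 to 3, 9.30, 9.27, 10.19 and 7.56 on IFNa replicates 1 to 4, and 9.73 and 9.14 on IFNg replicates 1 and 2. All 3 were high on untreated replicate 3, IFNa replicate 3 and IFNg replicate 1. Among the IFNa arrays they spanned 7.07-fold, 6.45-fold and 6.19-fold, and among the untreated arrays 2.54-fold, 2.64-fold and 2.75-fold. Without IFNa replicate 4 the IFNa spans were 3.15-fold, 2.10-fold and 1.89-fold, the last 2 of them below the untreated spans. Top2a had 1 probe set of its own, and its 2 probe sets shared with other symbols were not used.

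The cyclins of mitotic entry followed the same order of arrays. Ccnb2, a B-type cyclin that activates Cdk1, had levels of 9.94, 10.57 and 11.14 on untreated replicates 1 to 3, 10.87, 11.21, 11.74 and 9.55 on IFNa replicates 1 to 4, and 11.55 and 11.18 on IFNg replicates 1 and 2. Ccna2, the cyclin A of S phase and early mitosis, had levels of 8.59, 9.27 and 10.20 on untreated replicates 1 to 3, 9.97, 10.46, 11.02 and 8.66 on IFNa replicates 1 to 4, and 10.75 and 10.21 on IFNg replicates 1 and 2. Aurkb, the kinase of the chromosomal passenger complex, had levels of 8.95, 8.90 and 9.65 on untreated replicates 1 to 3, 9.42, 9.87, 10.44 and 8.67 on IFNa replicates 1 to 4, and 10.25 and 9.63 on IFNg replicates 1 and 2. The level on IFNa replicate 4 lay below all 3 untreated arrays for Ccnb2 and Aurkb, while IFNa replicate 3 lay above every other array for all 3 genes. Over the 19 mitosis genes the range within the IFNa group ran from 0.93 (Cdc20, the activator of the anaphase-promoting complex) to 2.82 (Bub1), and within the untreated group from 0.25 to 1.61. Within the IFNg pair it ran from 0.27 to 0.80. The mitosis genes not given by array, which include the kinases Cdk1, Plk1 and Bub1b, the kinetochore protein Cenpf, the motor Kif20a and the spindle proteins Nusap1 and Tpx2, spanned 1.91-fold to 4.82-fold among the IFNa arrays, and 1.67-fold to 2.58-fold without replicate 4. Over all 32 genes the median range was 1.76 on the IFNa arrays and 1.00 without replicate 4, beside 1.00 on the untreated arrays.

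**Figure D1:**
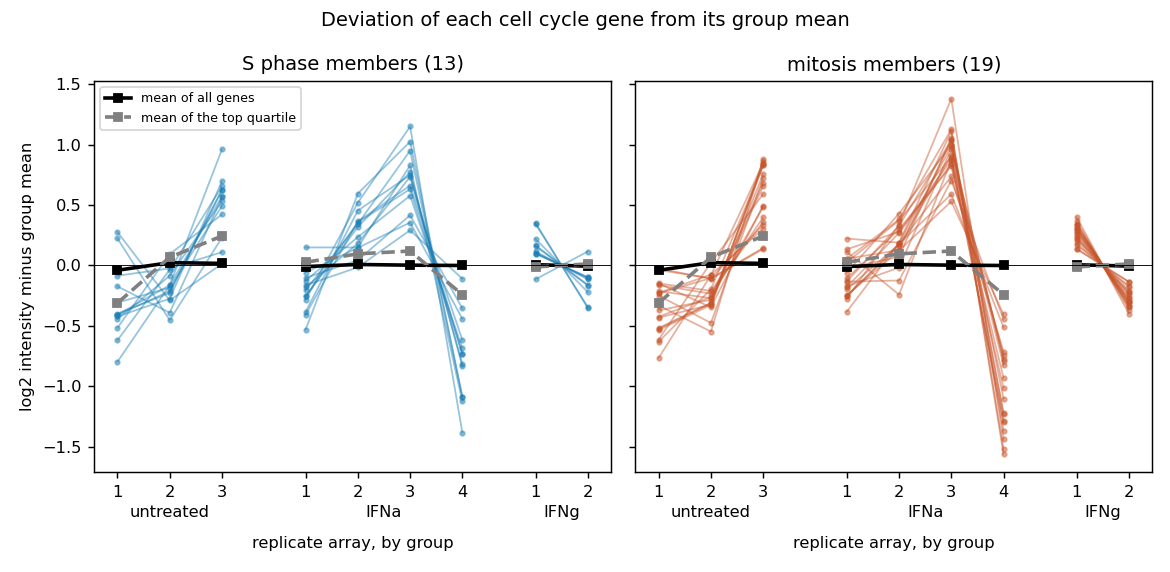
Deviation of each gene from the mean of its own group (vertical axis, log2 intensity) on each of the 9 arrays (horizontal axis, replicate by group), with the 13 S phase genes on the left and the 19 mitosis genes on the right. Coloured lines join the values of 1 gene and have no order in time, black squares are the mean of all 19752 genes, and grey squares are the mean of the genes in the top quartile of mean intensity. The cell cycle genes peak together on replicate 3 of the untreated and IFNa groups and drop together on IFNa replicate 4, while the mean of all genes stays near 0.

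Averaged over the 32 genes, the deviation from the group mean was -0.33, -0.22 and 0.55 on the untreated arrays, -0.14, 0.23, 0.83 and -0.91 on the IFNa arrays, and 0.21 and -0.21 on the IFNg arrays. S phase and mitosis genes agreed in sign on all 9 arrays, with mean deviations on IFNa replicates 3 and 4 of 0.70 and -0.77 for S phase and 0.92 and -1.01 for mitosis. Over all genes the mean deviation was within 0.04 of 0 on each array. The full order of the IFNa arrays, replicate 3 over 2 over 1 over 4, was shown by 28 of 32 genes, against 9.38% of all genes and 16.4% of the genes in the top quartile of mean intensity. The 3 exceptions to the high and low arrays, singled out after their values were seen, were Tk1, highest on untreated replicate 1, Ccne1, lowest on IFNa replicate 1, and Mcm3, higher on IFNg replicate 2.

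The width of the intensity distribution moved with part of this pattern. For genes in the top quartile the mean deviation was -0.31, 0.07 and 0.24 on the untreated arrays and 0.03, 0.10, 0.12 and -0.24 on the IFNa arrays, so low on the narrow arrays and high on untreated replicate 3. After quantile normalization, which gives every array 1 distribution, the cell cycle genes kept mean deviations of -0.24, -0.21 and 0.46 on the untreated arrays and -0.12, 0.19, 0.74 and -0.81 on the IFNa arrays. The top quartile then lay within 0.04 of 0. With the interquartile range of each array as a covariate, the median residual SD of the 32 genes fell from 0.63 to 0.35. Over all genes it fell from 0.21 to 0.13. The part of array width in this pattern was not tested further.

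**Figure D2:**
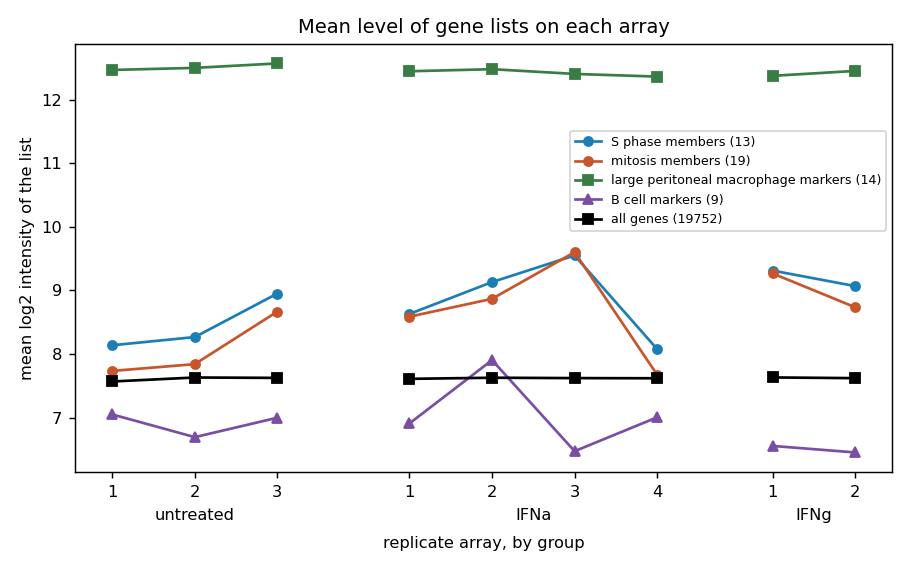
Mean log2 intensity (vertical axis) of the 13 S phase genes, the 19 mitosis genes, 14 large peritoneal macrophage markers, 9 B cell markers and all 19752 genes on each of the 9 arrays (horizontal axis, replicate by group). Each point is the mean over the list on 1 array. The cell cycle lists swing by more than 1 log2 unit between IFNa replicates 3 and 4, while the macrophage markers stay between 12.37 and 12.57, and the B cell markers peak on IFNa replicate 2.

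Markers of other cell types were not high on IFNa replicate 3. Of 10 B cell markers, 9 were measured, and their mean deviation on the IFNa arrays was -0.16, 0.83, -0.60 and -0.07, so lowest on replicate 3, where all 32 cell cycle genes were highest. Their summed intensity was 1046 to 1351 on the untreated arrays, 870 to 2784 on the IFNa arrays and 878 to 939 on the IFNg arrays, and none was at 0, as array intensities have no true 0. The other 6 lists (mast cells, T and NK cells, red cells with platelets, granulocytes, mesothelium with stroma, and small macrophages with monocytes and dendritic cells) had mean deviations on IFNa replicate 3 between -0.19 and -0.03. On IFNa replicate 4 they lay between -0.05 and 0.25. All genes in the lowest quartile of mean intensity had means of -0.14 and 0.30 on these 2 arrays. After quantile normalization the 6 lists lay between -0.10 and -0.01 on IFNa replicate 3 and between -0.02 and 0.12 on replicate 4. Without that step, the 6 lists and the B cell list lay between -0.26 and 0.08 on untreated replicate 3. On IFNg replicate 1 they lay between -0.02 and 0.06. The part of cell content in these values was not tested.

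Measured by the residual SD (the spread of log2 intensity between arrays of 1 group, pooled over the 3 groups), the cell cycle genes were among the most variable of all. Their median residual SD was 0.63, against 0.21 for all genes and 0.11 for the macrophage markers. The 9 B cell markers had a median of 0.33 and a largest value of 1.07, with 4 above the 95th percentile of all genes. The residual SD exceeded the 95th percentile of all genes (0.48) in 26 of 32 genes, where 5% of all genes do so, and the 99th percentile (0.65) in 15, where 1% do so. For S phase the counts were 10 and 4 of 13, with Rrm2 (0.95), Mcm7 (0.78) and Ccne2 (0.71) at the top. For mitosis they were 16 and 11 of 19, with Bub1 (0.96), Top2a (0.94) and Kif11 (0.91) at the top. Ccne1 (0.20) lay below the median of all genes. Among the 100 genes of largest residual SD, 10 were cell cycle genes described here.

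The residual SD does not depend on differences between the group means, but it enters the standard errors of the group comparisons that follow. After quantile normalization 21 of 32 genes exceeded the 95th percentile and 11 the 99th. At the 95th percentile the loss lay in S phase, with 5 of 13 genes above it, while mitosis kept 16 of 19. Above the 99th percentile were 3 S phase and 8 mitosis genes, against 4 and 11 before. With the interquartile range of each array as a covariate, 23 exceeded the 95th percentile (7 of S phase and 16 of mitosis) and 6 the 99th. Without the 2 narrow arrays, 30 exceeded the 95th and 20 the 99th percentile. Wider lists of the same phases behaved alike in part. Of 34 other S phase genes 15 exceeded the 95th percentile, and of 47 other mitosis genes 33 did, with mean deviations on IFNa replicates 3 and 4 of 0.63 and -0.64 and of 0.75 and -0.86. None of the 8 G1 cyclins and cyclin-dependent kinases did so, beside 3 of 14 inhibitors and pocket proteins and 2 of 10 E2F and partner genes.

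**Figure D3:**
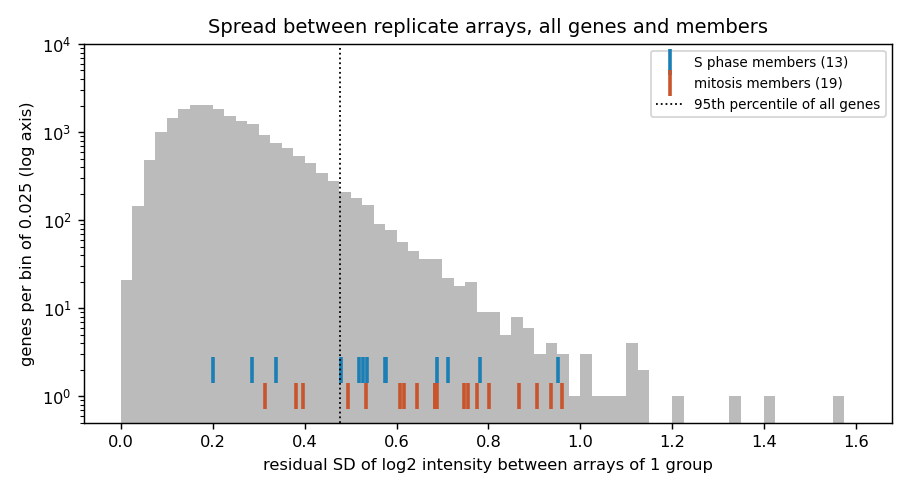
Histogram of the residual SD of log2 intensity between arrays of 1 group (horizontal axis) over all 19752 genes (grey bars, number of genes per bin on a log axis), with the 13 S phase genes as blue ticks and the 19 mitosis genes as orange ticks. The dotted line is the 95th percentile of all genes, 0.48, and 26 of the 32 ticks lie to its right.

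After IFNa no cell cycle gene passed the test against untreated. Every one of the 32 genes had a higher mean on the IFNa arrays, by a median of log2 0.50. In 30 of them the range of the untreated arrays alone was larger than the difference, and in 27 without IFNa replicate 4. The share of all genes with such a range was not counted. The largest difference was that of Cenpe, the motor that captures microtubules at kinetochores, at 2.44-fold. The comparison asks how the macrophages responded to type I interferon within 2 h.

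Cenpe had levels of 6.56, 6.69 and 7.13 on untreated replicates 1 to 3, 8.19, 7.84, 8.95 and 7.33 on IFNa replicates 1 to 4, and 8.19 and 7.66 on IFNg replicates 1 and 2. All 4 IFNa arrays lay above all 3 untreated arrays, which held for no other cell cycle gene and for 3.68% of all genes. The difference was log2 1.28 ± 0.33 (SE; 95% interval 0.53 to 2.03), with an adjusted p of 0.0947 (limma, Benjamini-Hochberg over all genes). It passed the test without IFNa replicate 4 (1.53, adjusted p 0.0264), without both narrow arrays (adjusted p 0.0426) and with the range as a covariate (adjusted p 0.0117).

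Prc1, which bundles the microtubules of the central spindle, had levels of 6.40, 6.18 and 7.61 on untreated replicates 1 to 3, 7.54, 7.70, 8.68 and 6.94 on IFNa replicates 1 to 4, and 7.99 and 7.54 on IFNg replicates 1 and 2. Tyms, the thymidylate synthase, had levels of 8.06, 7.85 and 8.80 on untreated replicates 1 to 3, 8.73, 9.09, 9.64 and 8.17 on IFNa replicates 1 to 4, and 9.07 and 8.86 on IFNg replicates 1 and 2. For both genes the IFNa arrays overlapped untreated replicate 3. Prc1 differed by 0.99 ± 0.43 (interval 0.04 to 1.94, adjusted p 0.393), Tyms by 0.67 ± 0.33 (interval -0.07 to 1.41, adjusted p 0.503) and Mcm6, next in S phase, by 0.60 ± 0.36 (interval -0.20 to 1.41, adjusted p 0.639). The difference of Mki67, the proliferation marker Ki-67, named after its values were seen, was 0.47 ± 0.42 (adjusted p 0.836).

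Of the 32 genes, 0 were called higher and 0 lower at an adjusted p under 0.05, against 1.79% and 0.856% of all genes. At an unadjusted p under 0.05 there were 2, Cenpe and Prc1, against 2356 of all 19752 genes. The differences ran from 0.14 to 0.68 in S phase (median 0.40) and from 0.05 to 1.28 in mitosis (median 0.60). The median over all genes was -0.02, and 9124 of 19752 lay above 0. Without the dimmest 50% of genes, a filter that kept 28 of the 32, the median over all genes left was -0.05. As the genes shared the order of the arrays, their common sign is not 32 separate observations. The widest interval, that of Bub1, reached from -0.39 to 2.24. Leaving out IFNa replicate 3, the array highest for all 32, lowered the median difference to 0.20, and leaving out IFNa replicate 4 raised it to 0.85. With arrays weighted by their residual variance within groups, 27 genes were called higher, against 11.8% of all genes, and untreated replicate 2 then had a weight of 5.07 and the other untreated arrays 0.21 and 0.30.

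After IFNg all 32 means were again above untreated, by a median of log2 0.81, and again none passed the test. The same 3 untreated arrays served as controls here as for IFNa. For 23 of the 32 genes, 9 of S phase and 14 of mitosis, both IFNg arrays lay above all 3 untreated arrays, against 12.3% of all genes. In 21 of the 32 the range of the untreated arrays alone was larger than the IFNg difference. The share of all genes with such a range was not counted. As the genes shared the order of the arrays, these counts are not separate observations. With 2 IFNg arrays the intervals were wide.

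Mcm2, a helicase subunit, had levels of 8.08, 8.25 and 9.11 on untreated replicates 1 to 3, 8.51, 9.28, 9.58 and 8.30 on IFNa replicates 1 to 4, and 9.44 and 9.42 on IFNg replicates 1 and 2. Aurka, the kinase of the spindle poles, had levels of 7.63, 7.57 and 8.14 on untreated replicates 1 to 3, 7.77, 8.20, 8.61 and 7.51 on IFNa replicates 1 to 4, and 8.67 and 8.40 on IFNg replicates 1 and 2. In both, the IFNg arrays lay above the untreated arrays and Mcm2 stayed within the range of the IFNa arrays, while IFNg replicate 1 was the highest of all 9 arrays for Aurka. Mcm2 differed by 0.95 ± 0.40 (interval 0.05 to 1.85, adjusted p 0.574), and Mcm5 by 0.87 ± 0.39 (adjusted p 0.608). Cenpe differed by 1.13 ± 0.40 (interval 0.23 to 2.03, adjusted p 0.429) and Aurka by 0.75 ± 0.31 (interval 0.07 to 1.44, adjusted p 0.54). The largest difference was that of Bub1, 1.58 ± 0.70 (2.98-fold, adjusted p 0.607), whose levels between arrays of 1 group also spread most.

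Of the 32 genes 0 were called higher and 0 lower, against 1.24% and 0.111% of all genes. An unadjusted p under 0.05 was found for 4, Mcm2, Aurka, Bub1 and Cenpe, against 1626 of all 19752 genes. Differences ran from 0.28 to 1.22 in S phase (median 0.73) and from 0.31 to 1.58 in mitosis (median 0.86). The median over all genes was -0.06, and 7886 of 19752 lay above 0. Without the dimmest 50% of genes, a filter that kept 28 of the 32, the median over all genes left was 0.10. Adjusted p-values ran from 0.429 to 0.776. With weighted arrays 28 genes were called higher, against 13.8% of all genes, with the weights given above.

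**Figure D4:**
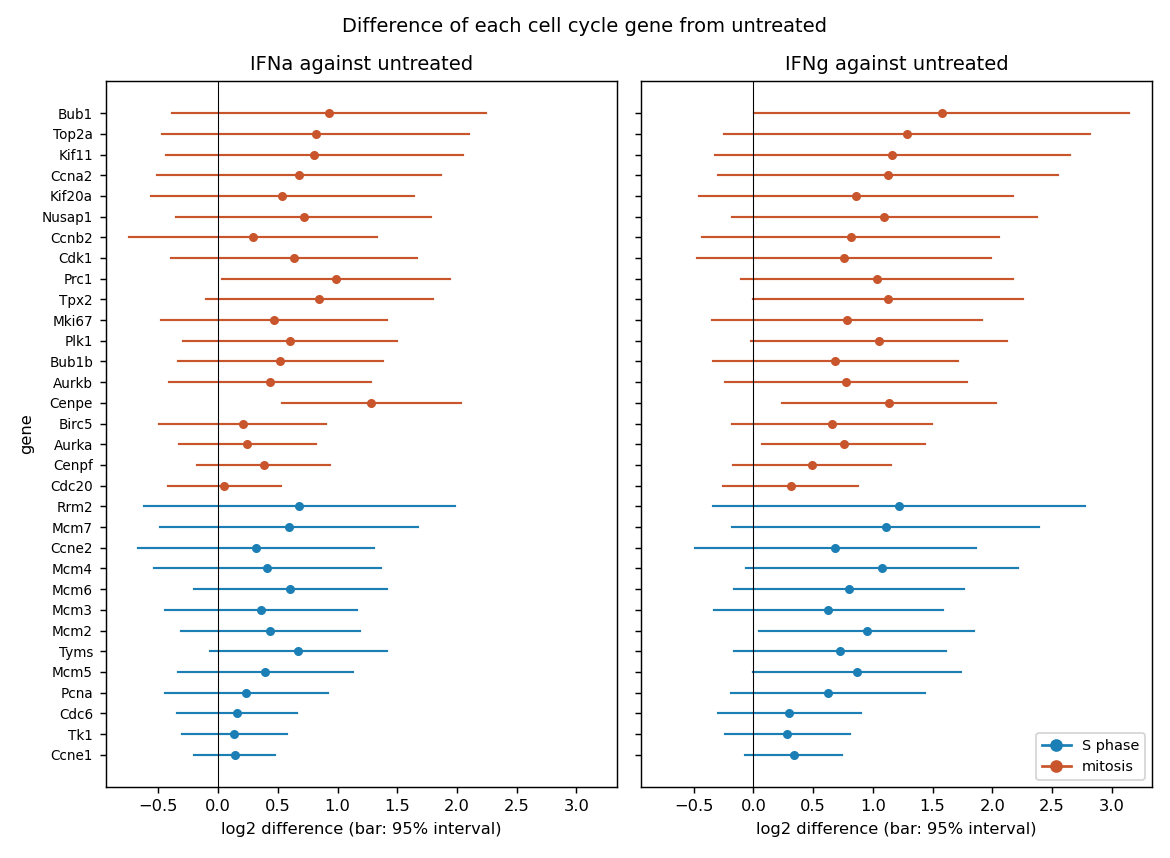
Log2 difference from untreated (horizontal axis) of each of the 32 cell cycle genes (vertical axis) after IFNa on the left and IFNg on the right, with points for the fitted difference and bars for the 95% interval from limma. Blue marks S phase and orange mitosis. All points lie right of 0, and of the bars only those of Cenpe and Prc1 after IFNa and of Mcm2, Aurka, Bub1 and Cenpe after IFNg do not cross it. None of the 32 genes passed the test after adjustment over all genes.

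The treatments did not separate in these genes when set against each other. Of 32 genes, 31 had a lower mean after IFNa than after IFNg, Cenpe being the exception. The median difference was log2 -0.35, against 0.03 over all genes and -0.15 over those left without the dimmest 50%. None was called either way, where 0.44% of all genes were called higher and 0.537% lower after IFNa. An unadjusted p under 0.05 was reached by none, against 1397 of all 19752 genes. None had all IFNa arrays above both IFNg arrays, where 12.8% of all genes did, or below both, where 15.6% did.

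Mcm4, a helicase subunit, had levels of 8.07, 8.27 and 9.11 on untreated replicates 1 to 3, 8.69, 9.24, 9.85 and 7.81 on IFNa replicates 1 to 4, and 9.57 and 9.54 on IFNg replicates 1 and 2. Birc5, or survivin, a member of the chromosomal passenger complex, had levels of 6.99, 7.14 and 7.52 on untreated replicates 1 to 3, 7.23, 7.60, 8.16 and 6.71 on IFNa replicates 1 to 4, and 8.19 and 7.56 on IFNg replicates 1 and 2. IFNa replicate 3 lay above both IFNg arrays for Mcm4 and between them for Birc5, and IFNa replicate 4 was the lowest treated array for both genes. The differences of IFNa minus IFNg were -0.66 ± 0.48 for Mcm4, -0.51 ± 0.38 for Mcm2, -0.51 ± 0.29 for Aurka (interval -1.16 to 0.14) and -0.45 ± 0.35 for Birc5, each with an adjusted p of 0.802. Leaving out 1 array at a time, the median was -0.65 without IFNa replicate 3, -0.01 without IFNa replicate 4, -0.10 without IFNg replicate 1 and -0.58 without IFNg replicate 2.

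Among regulators of the cycle outside these 32 genes, single genes changed after interferon whose levels did not follow the order of the arrays seen above. Ccnd2, a D-type cyclin that activates Cdk4 and Cdk6 in G1, had levels of 8.22, 8.58 and 8.37 on untreated replicates 1 to 3, 9.21, 9.77, 9.81 and 10.52 on IFNa replicates 1 to 4, and 9.27 and 8.82 on IFNg replicates 1 and 2. All treated arrays lay above the untreated arrays, and IFNa replicate 4, lowest for 31 of the 32 cell cycle genes, was highest. It rose by 1.43 ± 0.27 after IFNa (adjusted p 0.0199), the only one of 8 G1 cyclins and cyclin-dependent kinases called higher, with none lower. The call was lost without any 1 of the 3 untreated arrays or IFNa replicates 2 or 3 (adjusted p 0.0511 to 0.0666). Cdc25a, a phosphatase that activates Cdk2, had the smallest p of this list after IFNg (0.78 ± 0.28, adjusted p 0.436).

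Cdkn2b, or p15, an inhibitor of Cdk4 and Cdk6, had levels of 8.03, 8.44 and 8.08 on untreated replicates 1 to 3, 7.48, 7.52, 7.28 and 7.12 on IFNa replicates 1 to 4, and 7.43 and 7.52 on IFNg replicates 1 and 2. It fell by 0.83 ± 0.14 after IFNa (adjusted p 0.0137), the only 1 of 14 measured inhibitors and pocket proteins (16 listed) to be called, and differed by -0.71 ± 0.17 after IFNg (adjusted p 0.12). The call was lost without untreated replicate 2 (adjusted p 0.0761) or IFNa replicate 3 (0.0512). The median difference of this list was -0.33 after IFNa and -0.03 after IFNg. None of 10 E2F and partner genes was called in any comparison, and the smallest p with untreated was that of Tfdp1, the partner of the E2F proteins, at 0.31 ± 0.19 after IFNa and 0.31 ± 0.22 after IFNg.

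Pttg1, or securin, which holds back separase until anaphase, had levels of 8.58, 9.10 and 9.37 on untreated replicates 1 to 3, 10.69, 9.93, 10.06 and 10.10 on IFNa replicates 1 to 4, and 9.04 and 8.88 on IFNg replicates 1 and 2. The 4 IFNa arrays lay above the 5 others, and replicate 3 was not the highest among them. Pttg1 rose after IFNa by 1.18 ± 0.22 (adjusted p 0.0215), the only call among 47 other mitosis genes, whose median difference was 0.37 after IFNa and 0.65 after IFNg. The call was lost without untreated replicate 1 (adjusted p 0.0536) or untreated replicate 2 (0.0851). Among 34 other S phase genes none was called, with medians of 0.29 and 0.57, and the smallest p after IFNa was that of Mcm10, a replication initiation factor, at 1.29 ± 0.30 (adjusted p 0.0594).

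Of 11 listed genes for the growth and self-renewal of macrophages 10 were measured, and 3 were called in each comparison with untreated, 2 higher and 1 lower. Csf1, the growth factor of macrophages, had levels of 8.04, 8.44 and 8.52 on untreated replicates 1 to 3, 10.35, 10.31, 10.46 and 10.17 on IFNa replicates 1 to 4, and 9.79 and 9.84 on IFNg replicates 1 and 2. It rose by 1.99 ± 0.14 after IFNa (adjusted p 3.66e-05) and 1.48 ± 0.17 after IFNg (adjusted p 0.0019), with all treated arrays above all untreated ones. Gata6, the transcription factor that sets the identity of large peritoneal macrophages, lay at 11.69 to 11.95 on the untreated arrays, 10.42 to 11.06 on the IFNa arrays and 10.48 to 10.88 on the IFNg arrays. It fell by 1.05 ± 0.17 after IFNa (adjusted p 0.00997), and it fell by 1.16 ± 0.21 after IFNg (adjusted p 0.0242). The first call was lost without untreated replicate 2 (adjusted p 0.0641) and the second without untreated replicate 2, untreated replicate 3, IFNg replicate 1 or IFNg replicate 2 (0.0601 to 0.337).

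Maf, a transcription factor that restrains self-renewal, rose after IFNa by 0.79 ± 0.17 (adjusted p 0.0446), from 10.10 to 10.54 on the untreated arrays to 10.90 to 11.52 on the IFNa arrays. That call was lost without any 1 of 8 of the arrays (adjusted p 0.0604 to 0.113), IFNa replicate 4 being the exception, and after quantile normalization (0.0919). Il4ra, the receptor chain for interleukin 4, had levels of 9.65, 9.78 and 9.84 on untreated replicates 1 to 3, 9.73, 9.79, 9.63 and 10.42 on IFNa replicates 1 to 4, and 10.94 and 11.18 on IFNg replicates 1 and 2. It rose after IFNg by 1.30 ± 0.22 (adjusted p 0.0196), and the call was lost without untreated replicate 1, untreated replicate 2, IFNg replicate 1 or IFNg replicate 2 (adjusted p 0.0684 to 0.244) and after quantile normalization (0.108). The growth and self-renewal genes were measured on the same arrays as the cell cycle genes, with a smaller median residual SD (0.24 against 0.63). The residual SD of the growth list ran from 0.13 to 0.28, that of the cell cycle genes from 0.20 to 0.96. After quantile normalization the ranges were 0.08 to 0.42 and 0.18 to 0.97, with medians of 0.25 and 0.55.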

How the data were processed

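Messenger RNA was measured on 9 single-colour Affymetrix arrays. Per the submitters' processing notes, the authors ran RMA, which corrects background, normalizes and summarises probes, and Affymetrix Power Tools, with no version given. The deposited unit is linear intensity, and which arrays were normalized together is not given in the sources used here. Arrays give no counts, and their number limits the precision. No column belonged to other samples (0 not used).

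The log2 of each intensity was taken. Of 24922 probe sets, 21425 carried 1 symbol, 1399 several and 2098 none in the platform table, and the highest-mean probe set per gene left 19752 genes with no filter on low values. A model with 3 group means over all 9 arrays was fitted with limma 3.58.1 in R 4.3.3 (6 residual and 3.62 prior degrees of freedom), so the spread of the 2 IFNg arrays was taken to equal that of the rest. Two-sided p-values were adjusted over all genes (Benjamini-Hochberg), and a gene was called at an adjusted p under 0.05. Errors after a difference are standard errors. The model was run on simulated data with independent noise in each gene. Those data hold no genes that move together between arrays, so they do not test the model for the genes described here. Per role, all values were given for the 3 genes of highest untreated mean, the 3 of largest residual SD and the 2 of smallest p per comparison, and for other lists up to 4 called genes or that of smallest p. The genes and lists were chosen with earlier results of these data known. Promoters were taken from RefSeq (GRCm38.p6) with Python 3.11.15. Alternatives were quantile normalization, median centring, removal of the dimmest 30% or 50% of genes, other variance models, the lowest-mean probe set, only the groups compared, array weights, replicate blocks and leaving out arrays. Array weights by the gene-by-gene method were chosen after seeing the data, because the default estimate did not converge.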

Additional observations from a re-analysis of the deposited data

Results flagged for a closer look

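The change of Il4ra, the receptor chain for interleukin 4, differed between the interferons, with the test of the difference itself. IFNa minus IFNg was -1.17 ± 0.21 on the log2 scale (limma, adjusted p 0.0323), and all 4 IFNa arrays lay below both IFNg arrays. The call was lost without any 1 of untreated replicates 2 and 3, IFNa replicates 1 to 3 and IFNg replicates 1 and 2 (adjusted p 0.0596 to 0.467), after quantile normalization (0.126) and in a fit of only the 2 groups compared (0.11).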

How the results depend on the processing

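The number of cell cycle genes called higher was 0 under the fit reported for both interferons. After IFNa it was 27 with array weights, 15 with the replicate number of the titles as a block (2.97% of all genes), 6 with that of the descriptions as a block (3.68%), 1 without untreated replicate 1 and IFNa replicate 4, 1 with the intensity range as a covariate, and 0 to 1 when leaving out 1 array at a time. After IFNg it was 28 with array weights and 23 with the replicate block by titles (2.98% of all genes). Same-numbered arrays did not deviate together in every pair (correlations of their deviations -0.21 to 0.60 by titles and -0.44 to 0.11 by descriptions), so the numbers were not taken as pairs. In both numberings IFNa replicate 4 shared its number with no other array, so each block in effect left it out of the comparisons. Under the block by titles the median IFNa difference was 0.85, the same as without IFNa replicate 4. Under the block by descriptions the IFNa minus IFNg median turned to 0.51, with Mcm2 at 0.25, Mcm4 at 0.31 and Birc5 at 0.0925. Pttg1 lost its call after IFNa under both blocks (adjusted p 0.0514 and 0.0501). The cause was not tested. Over the other alternatives run, the counts called lower stayed 0, and all medians kept their sign. When leaving out 1 array at a time, the median ran from 0.20 to 0.85 after IFNa, from 0.66 to 1.10 after IFNg and from -0.65 to -0.01 for IFNa minus IFNg. Of the values for single genes, 416 kept their direction and side of the threshold, 43 lost a call and 21 gained one. With 2 IFNg arrays and a spread this wide within groups, a p above the threshold does not show that these genes were alike between groups.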
